A study of Mus musculus with 17 samples.

Results

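Cd24a encodes the mouse CD24 antigen, a small surface glycoprotein attached to the membrane by a glycosylphosphatidylinositol (GPI) anchor. It is 1 of 18193 genes with a probe set of a single gene symbol on an Affymetrix mouse expression array, measured on 17 arrays of sorted bone marrow cells. Of the 45101 probe sets, the 3 whose only annotated symbol is Cd24a were taken. They are called probe set A, probe set B and probe set C here, from the brightest to the dimmest, and the manufacturer's names end in a_at, at and x_at. Each is given separately, and all 3 were among the 32426 probe sets kept after a filter on dim signal. The gene was also chosen as an antigen of the sort, since marrow cells were stained with an antibody mixture that included CD24, CD48 and Gr-1 and were separated into GPI-deficient (GPI-) and GPI-normal (GPI+) cells. The sorted fractions therefore differ by construction in the CD24 protein on the surface, whereas the arrays measured Cd24a RNA. An effect of the sort gate on that RNA cannot be told apart from an effect of the anchor's loss.

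In batch 1, GPI- cells (3 arrays) and GPI+ cells (3 arrays) both came from the marrow of Pig-a knock-out mice. In batch 2, GPI- cells (4 arrays) came from C57BL/6 mice transplanted with enriched Pig-a knock-out marrow, GPI+ cells (3 arrays) from C57BL/6 mice transplanted with wild-type marrow, and GPI+ cells (4 arrays) from wild-type C57BL/6 mice that received no graft. These groups are called knock-out GPI-, knock-out GPI+, knock-out-graft GPI-, wild-type-graft GPI+ and wild-type GPI+ below. Knock-out donor marrow was kept with 10 nM aerolysin, a toxin that lyses cells carrying GPI-anchored proteins, for 30 minutes before transfer, and its recipients had received 9 Gy of irradiation. The labels describe no treatment of wild-type donor marrow. Knock-out-graft and wild-type-graft mice thus differ in donor genotype and possibly in handling as well as in GPI status, and the part of each cannot be told apart. The labels state neither the promoter or Cre driver of the deletion, nor the deleted part of the gene, nor the age of the mice. They call the arrays biological replicates without naming animals, so p-values measure only the spread between these arrays.

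CD24 has no intracellular domain and is held in the outer leaflet of the membrane, where it can act through Src-family kinases in lipid rafts. In mouse marrow it is known from developing B cells, from red-cell precursors and from granulocytes, and it is low on most mature T cells. Pig-a (Piga) encodes the catalytic subunit of the transferase that starts GPI anchor synthesis, so cells that lose it can transcribe Cd24a but cannot attach its product to the membrane.

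Values are log2 signals of the authors' normalized table, centred on a common array median. The deposited values were normalized separately in each batch, so groups were compared within a batch only. Differences are log2 differences with the standard error (SE) of a limma fit over all 17 arrays, and adjusted p-values are by Benjamini-Hochberg over the 32426 probe sets, with a threshold of 0.05. Piga, taken by its brightest probe set, served as the check of the labels. Its signal was 1.67, 1.92 and 1.65 in knock-out GPI- cells, against 3.70, 3.54 and 4.11 in knock-out GPI+ cells. It was 0.28 to 0.92 over the 4 knock-out-graft GPI- arrays, against 4.02 to 4.25 in wild-type-graft GPI+ cells and 4.07 to 4.30 in wild-type GPI+ cells. By this probe set Piga was thus lower on every GPI- array than on every GPI+ array of its batch. Another Piga probe set was lower as well, but by less. It gave -1.09 in knock-out GPI- against knock-out GPI+ cells (limma adjusted p = 0.0006484). Knock-out-graft GPI- cells gave -0.71 by it against wild-type-graft GPI+ cells (limma adjusted p = 0.04622). Against wild-type GPI+ cells the value was -0.86 (limma adjusted p = 0.004485). Depth is not defined for arrays, and the number of arrays limits the precision.

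Probe set A, the brightest, read 9.45, 10.12 and 9.61 in knock-out GPI- cells, against 10.79, 10.75 and 10.97 in knock-out GPI+ cells. All knock-out GPI- arrays were lower than all knock-out GPI+ arrays, and replicate 2 of the knock-out GPI- cells lay nearest to them. The means were 9.73 ± 0.35 in knock-out GPI- cells and 10.84 ± 0.12 in knock-out GPI+ cells (SD, n = 3 each). Its log2 signal fell by 1.11 (SE 0.14, 2.15-fold, limma adjusted p = 4.958e-06). In this comparison 25.4% of all kept probe sets passed the same test and 13.4% were called lower, so a call here was common. An exact two-sided permutation test gave p = 0.1, the smallest that 3 arrays against 3 allow. In bulk RNA, fewer cells that express Cd24a and less Cd24a RNA per cell cannot be told apart.

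Probe set B moved the same way by a smaller amount. It read 8.60, 9.21 and 8.57 in knock-out GPI- cells, against 9.54, 9.49 and 9.28 in knock-out GPI+ cells. Replicate 2 was again the highest of the knock-out GPI- arrays, and the groups did not overlap, as was the case in that direction for 20.6% of all kept probe sets. The signal fell by 0.65 (SE 0.14, limma adjusted p = 0.001742).

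Probe set C went the opposite way. It read 6.97, 7.23 and 7.56 in knock-out GPI- cells, against 6.78, 6.65 and 6.53 in knock-out GPI+ cells. All 3 knock-out GPI- arrays were higher, by narrow margins, and groups lay apart in this direction for 19% of all kept probe sets. The difference was 0.60 (SE 0.17, limma adjusted p = 0.01235, with 12% of kept probe sets called higher). It lost the call without knock-out GPI- replicate 3 (0.45, limma adjusted p = 0.08149) and without knock-out GPI+ replicate 3 (0.54, limma adjusted p = 0.05809). The platform annotation gives this probe set the symbol Cd24a but no transcript accession, while the other 2 carry a RefSeq transcript. The ending x_at is the manufacturer's mark for probes that may also match other sequences, so its assignment to Cd24a is uncertain.

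**Figure D1:**
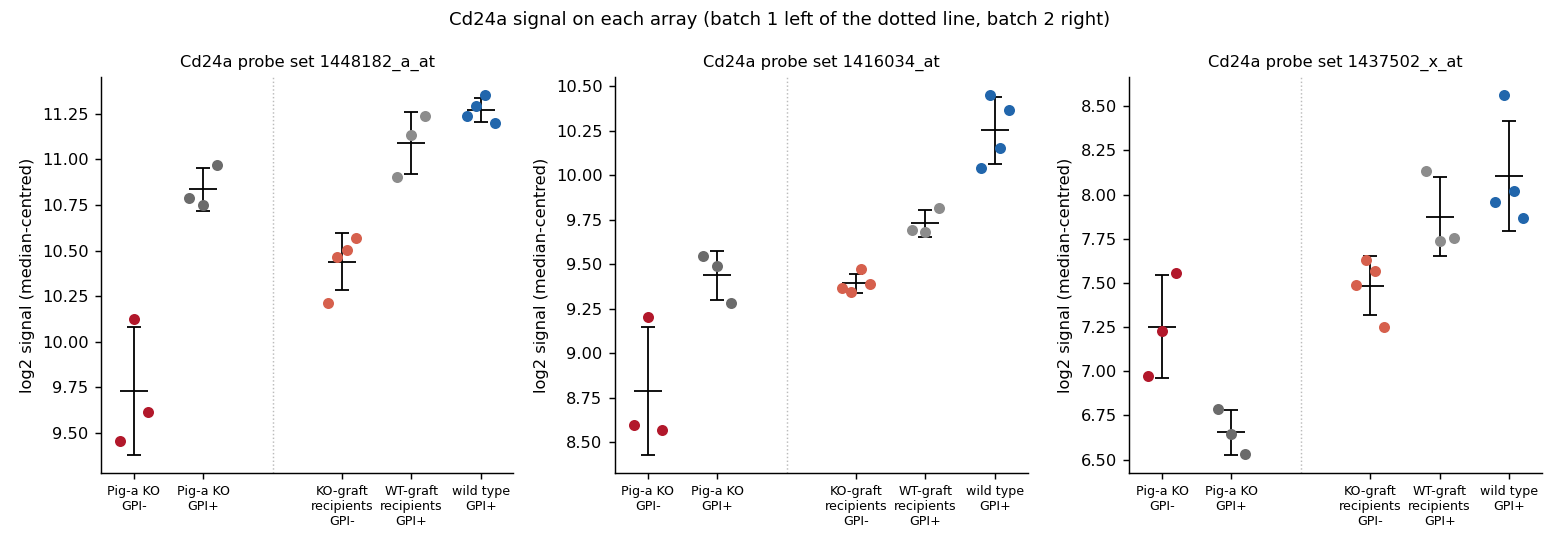
Log2 signal of each Cd24a probe set on every array (y axis, median-centred), 1 point per array in 5 groups, with the mean (horizontal line) and SD (bars); batch 1 stands left of the dotted line and batch 2 right of it. The panels are probe sets A, B and C from left to right, under the manufacturer's names. Probe set A averaged 9.73 in knock-out GPI- cells and 10.84 in knock-out GPI+ cells, whereas probe set C averaged 7.25 in knock-out GPI- cells and 6.65 in knock-out GPI+ cells. The y axes do not start at 0.

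In the transplanted mice, probe set A read 10.21, 10.46, 10.50 and 10.57 in knock-out-graft GPI- cells, against 10.90, 11.13 and 11.24 in wild-type-graft GPI+ cells. Every knock-out-graft array was lower than every wild-type-graft array. The difference was -0.65 (SE 0.13, 1.57-fold, limma adjusted p = 0.004862), in a comparison where 4.1% of kept probe sets passed and 1.76% were called lower. The exact permutation test gave p = 0.02857, the smallest that 4 arrays against 3 allow.

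Probe set B read 9.37, 9.34, 9.47 and 9.39 in knock-out-graft GPI- cells, against 9.69, 9.68 and 9.82 in wild-type-graft GPI+ cells. The groups did not overlap, as for 6.21% of kept probe sets in that direction, but the difference of -0.34 did not pass (SE 0.13, 95% confidence interval -0.61 to -0.06, limma adjusted p = 0.1995). Probe set C read 7.49, 7.63, 7.57 and 7.25 in knock-out-graft GPI- cells, against 8.13, 7.74 and 7.75 in wild-type-graft GPI+ cells. Here too the knock-out-graft arrays were all lower, and the difference of -0.39 did not pass (SE 0.16, limma adjusted p = 0.2181).

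Knock-out-graft GPI- cells were also set against wild-type GPI+ cells, and this comparison shares the knock-out-graft arrays with the one above. In wild-type GPI+ cells probe set A read 11.24, 11.29, 11.35 and 11.20, and all 4 lay above the knock-out-graft arrays. The difference was -0.83 (SE 0.12, 1.78-fold, limma adjusted p = 0.0001493), in a comparison where 8.16% of kept probe sets passed and 3.97% were called lower. Probe set B read 10.04, 10.45, 10.15 and 10.37 in wild-type GPI+ cells and gave a difference of -0.86 (SE 0.12, limma adjusted p = 0.0001122). Probe set C read 7.96, 8.56, 8.02 and 7.87 in wild-type GPI+ cells and gave -0.62 (SE 0.15, limma adjusted p = 0.009906). All 3 probe sets thus fell in knock-out-graft GPI- cells against wild-type GPI+ cells, with no overlap between the groups, which held in that direction for 6.51% of kept probe sets.

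Between both GPI+ groups of batch 2, probe set A averaged 11.09 ± 0.17 over the 3 wild-type-graft arrays and 11.27 ± 0.07 over the 4 wild-type arrays (SD). The groups overlapped, and the difference of -0.18 did not pass (SE 0.13, 95% confidence interval -0.45 to 0.10, limma adjusted p = 0.6434). For probe set B the means were 9.73 ± 0.07 in wild-type-graft cells and 10.25 ± 0.19 in wild-type cells, and all wild-type-graft arrays were lower, as for 6.16% of kept probe sets. Its difference of -0.52 missed the threshold (SE 0.13, limma adjusted p = 0.07561), where 0.617% of kept probe sets passed. It passed when only batch 2 was fitted (limma adjusted p = 0.04446) or when arrays were weighted by quality (limma adjusted p = 0.02171). Probe set C overlapped between both groups, with a difference of -0.23 (limma adjusted p = 0.6188). In batch 2 the mean of each probe set was lowest in knock-out-graft GPI-, intermediate in wild-type-graft GPI+ and highest in wild-type GPI+ cells.

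**Figure D2:**
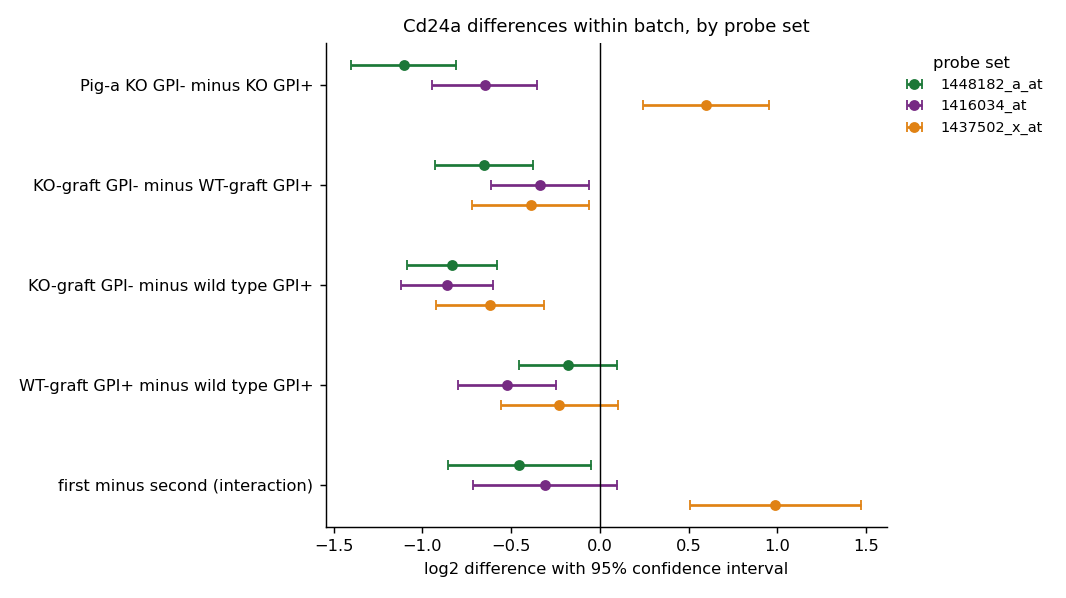
Log2 differences of the 3 Cd24a probe sets (x axis) in the 4 comparisons within a batch and in the interaction (rows from top to bottom), with 95% confidence intervals from the limma fit. Probe set A and probe set B lie left of 0 in every row, and probe set C lies right of 0 for knock-out GPI- minus knock-out GPI+ cells (0.60) and left of 0 in the 3 rows of batch 2.

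The interaction asks whether the difference between knock-out GPI- and knock-out GPI+ cells equals that between knock-out-graft GPI- and wild-type-graft GPI+ cells. Those comparisons share no array. For probe set A it was -0.45 (SE 0.19, 95% confidence interval -0.86 to -0.05, limma adjusted p = 0.1253), and for probe set B it was -0.31 (limma adjusted p = 0.3204), so neither passed. Without knock-out GPI- replicate 2 both passed, at -0.65 (limma adjusted p = 0.0111) for probe set A and -0.52 (limma adjusted p = 0.03544) for probe set B. With array quality weights probe set A passed as well (-0.56, limma adjusted p = 0.03299). Probe set C passed at 0.99 (SE 0.23, limma adjusted p = 0.00598), where 15% of kept probe sets passed. It lost this call when the 3 knock-out GPI+ arrays, which lay unusually close together, were counted as 1 sample (0.99, limma adjusted p = 0.07111). RNA input was 500 ng in the first experiment and 1000 ng in the second, so batch differs from the knock-out to the transplant comparison as well.

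The probe sets of this 1 gene were also set against each other on the same array, since a factor common to all signals of an array cancels in such a ratio, whereas a difference in the steepness of the scale does not. Probe set A exceeded probe set C by 2.48, 2.90 and 2.06 log2 units in knock-out GPI- cells, against 4.003, 4.10 and 4.44 in knock-out GPI+ cells. This ratio was smaller on every knock-out GPI- array, by 1.70 on average. Probe set B exceeded probe set C by 1.62, 1.98 and 1.01 in knock-out GPI- cells, against 2.76, 2.84 and 2.75 in knock-out GPI+ cells. The 2 probe sets that share a RefSeq transcript also differed, with probe set A over probe set B at 0.94 ± 0.10 in knock-out GPI- cells and 1.40 ± 0.25 in knock-out GPI+ cells (SD, n = 3 each). Each of these ratios separated both groups without overlap, yet each exact two-sided permutation test gave p = 0.1, the smallest possible, and 0.2743 after Benjamini-Hochberg adjustment over the 12 comparisons of ratios. None of the 12 passed, and this adjusted value was the lowest. Probe set A over probe set B also reached it in knock-out-graft GPI- cells (1.05 ± 0.15, n = 4) against wild-type-graft GPI+ cells (1.36 ± 0.13, n = 3; exact permutation p = 0.05714). The same ratio reached it between both GPI+ groups of batch 2, where wild-type-graft cells lay above wild-type cells (1.02 ± 0.21, n = 4) without overlap (difference 0.34, exact permutation p = 0.1143). Which stretches of the transcript the probes cover was not analysed here.

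**Figure D3:**
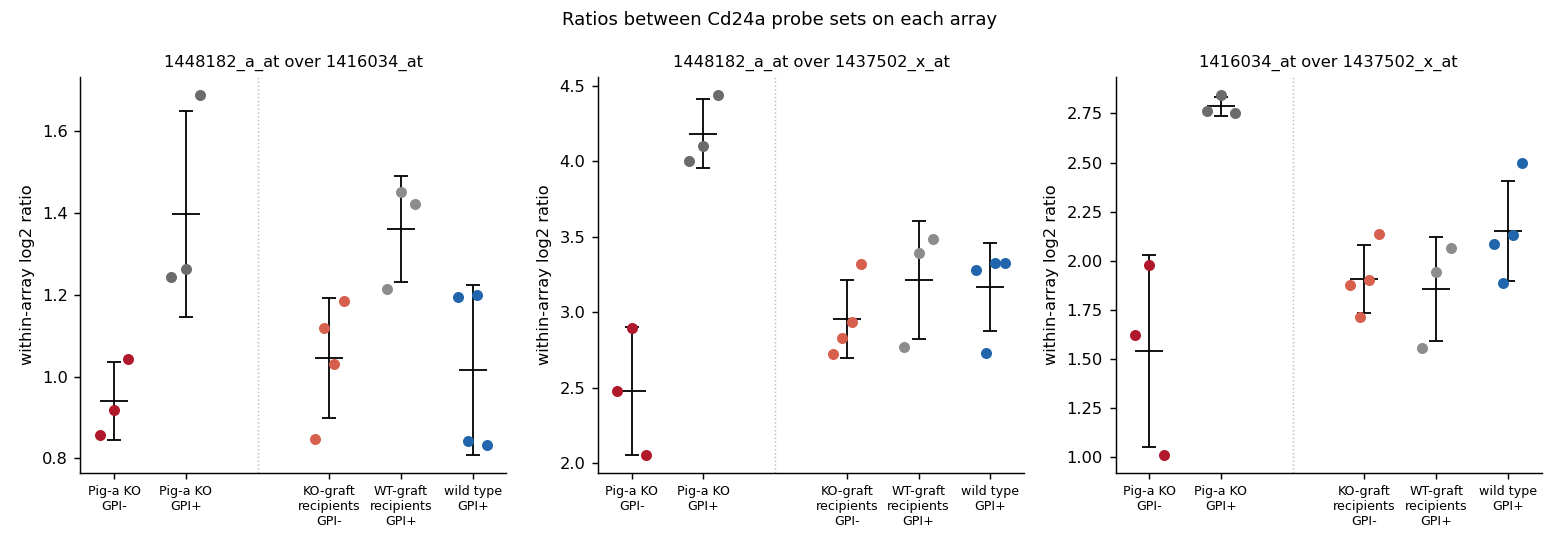
Log2 ratio between pairs of Cd24a probe sets on the same array (y axis), 1 point per array in 5 groups, with mean and SD; the dotted line separates the batches. The ratio of probe set A over probe set C averaged 2.48 in knock-out GPI- cells and 4.18 in knock-out GPI+ cells, and wild-type GPI+ replicate 2 lies at 2.73 below the other wild-type arrays. The y axes do not start at 0.

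Probe set A lay at the 99.77th to 99.98th percentile of its array's signals in every group, at the bright end of the scale. Control transcripts added to every array showed differences between the groups of batch 1. The signal of the control at 100 pM exceeded that of a different control transcript at 25 pM, per doubling of concentration, by 1.35 to 1.43 log2 units in knock-out GPI- cells, against 1.54 to 1.72 in knock-out GPI+ cells. These are different transcripts, so the value compares arrays and does not measure the steepness of the scale for any 1 transcript. The hybridisation controls averaged 8.33 ± 0.32 in knock-out GPI- cells and 6.28 ± 0.28 in knock-out GPI+ cells, and were 6.74 in knock-out-graft GPI-, 6.74 in wild-type-graft GPI+ and 6.33 in wild-type GPI+ cells. The Gapdh 3′ minus 5′ signal, a measure of RNA integrity and labelling, averaged -0.16 ± 0.13 in knock-out GPI- cells and -1.02 ± 0.02 in knock-out GPI+ cells. The part of these array differences in the Cd24a result was not tested. The 3 knock-out GPI+ arrays were also unusually close, with a median SD of bright probe sets of 0.064, against 0.139 to 0.181 in the other 4 groups. Counted as 1 sample, which is then assumed to vary like the other groups, they left the differences at -1.11, -0.65 and 0.60. Probe set A was still called, whereas probe set B (limma adjusted p = 0.06494) and probe set C (limma adjusted p = 0.1766) no longer passed.

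Cd48, the other antigen of the sort with a probe set of its own here, encodes a SLAM-family receptor that is held by a GPI anchor. Its signal was 6.52, 6.18 and 6.30 in knock-out GPI- cells, against 5.64, 5.46 and 5.65 in knock-out GPI+ cells, a rise of 0.75 (SE 0.14, limma adjusted p = 0.0004087). It also rose in knock-out-graft GPI- cells, by 0.71 against wild-type-graft GPI+ cells (limma adjusted p = 0.002342) and by 0.87 against wild-type GPI+ cells (limma adjusted p = 0.0001007). Of all 14245 genes, taken with 1 probe set each, 14%, 3.31% and 5.93% were called higher in these 3 comparisons. In the same 3 comparisons probe set A of Cd24a fell, whereas probe set C rose with Cd48 in knock-out GPI- cells, and probe sets B and C did not pass in knock-out-graft GPI- against wild-type-graft GPI+ cells. Genes of the Gr-1 antigen were not analysed here.

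Of 26 genes for GPI-anchored leukocyte proteins other than Cd24a, 21 were tested, 1 probe set a gene. The list includes Cd48, which is thus counted among the higher genes in each of the 3 comparisons. It also shares Bst2 with the dendritic cell list and Ly6a with the stem and progenitor list below, so the counts of these lists are not fully separate. In knock-out GPI- against knock-out GPI+ cells 8 were higher and 5 lower, with a median difference of 0.10, beside 28.1% of all 14245 genes called, 14% higher and 14.1% lower, and a median of -0.01. In knock-out-graft GPI- against wild-type-graft GPI+ cells 8 were higher and 0 lower (median 0.36), where 5.99% of genes were called, 3.31% higher and 2.68% lower. Against wild-type GPI+ cells 7 were higher and 1 lower (median 0.20), where 10.8% of genes were called, 5.93% higher and 4.89% lower. Thy1, the T-cell antigen, rose by 4.31, 2.16 and 2.44 in these 3 comparisons, and Bst2, the antiviral tetherin, by 2.02 and 1.60 in the first 2 and was also called higher in the third. Cd14, the lipopolysaccharide coreceptor of monocytes, fell by 0.81 in knock-out GPI- cells and was higher by 0.95 and 1.11 in knock-out-graft GPI- cells.

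Ligands and signalling partners of CD24 were taken as a list of 13 genes, of which 9 were tested. In knock-out GPI- against knock-out GPI+ cells 2 were higher and 4 lower (median -0.30), beside 14% of all genes called higher and 14.1% lower. Siglecg, the inhibitory lectin receptor of B cells that binds CD24, averaged 4.97 ± 0.35 in knock-out GPI- cells and 4.44 ± 0.04 in knock-out GPI+ cells, a rise of 0.53 (limma adjusted p = 0.01924). Selp, the P-selectin that binds CD24 on myeloid cells, fell by 0.66, and L1cam, a neural adhesion partner, fell by 0.55. Among Src-family kinases Fyn rose by 2.60 and Fgr fell by 1.19, and Pag1, a raft adaptor of these kinases, fell by 0.47. Cntn2, a neural adhesion partner, and the phosphatases Ptpn6 and Ptpn11, which act below inhibitory receptors, did not pass, with differences of 0.01, -0.30 and 0.17.

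In knock-out-graft GPI- against wild-type-graft GPI+ cells only Fyn passed among the 9 partners, at 1.23 (limma adjusted p = 6.255e-06), beside 5.99% of all genes called. Against wild-type GPI+ cells Fyn (1.14), Selp (0.60) and L1cam (0.64) were higher and Siglecg fell by 0.70 (limma adjusted p = 0.002965), beside 10.8% of all genes called. Siglecg, Selp and L1cam thus took opposite signs in the knock-out and in the knock-out-graft comparison with wild-type cells. The other 4 genes of the list were not analysed here.

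Markers of the cell types that carry CD24 moved differently in each comparison. Of 17 granulocyte genes, 15 were lower and 0 higher in knock-out GPI- against knock-out GPI+ cells (median -1.15), beside 14.1% of all genes called lower. Elane, the neutrophil elastase of primary granules, fell by 1.90 and Fcnb, a ficolin of granulocyte precursors, by 2.50. In knock-out-graft GPI- against wild-type-graft GPI+ cells 5 of the 17 were lower, with a median of 0.00, among them Elane (-1.06) and Fcnb (-1.56), beside 2.68% of all genes called lower. Against wild-type GPI+ cells 2 were lower and 0 higher (median -0.02), beside 4.89% of all genes called lower. The mean of the list was 8.11 to 8.40 in knock-out GPI- cells, against 9.39 to 9.42 in knock-out GPI+ cells, and 8.92 to 9.27 in knock-out-graft GPI- cells, against 9.21 to 9.37 in wild-type-graft GPI+ cells.

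Of 13 erythroid genes, 0 passed in knock-out GPI- against knock-out GPI+ cells (median 0.02), while 7 were lower in knock-out-graft GPI- against wild-type-graft GPI+ cells (median -0.86) and 12 against wild-type GPI+ cells (median -1.74). Of all genes, 28.1% were called in the knock-out comparison, and 2.68% and 4.89% were called lower in the 2 comparisons of knock-out-graft cells. Rhd, a red-cell Rh protein, fell by 1.46 and 2.27 in those 2 comparisons, and Ermap, an erythroid membrane protein, by 1.52 and 1.81. The mean of the list spread from 4.76 to 5.90 in knock-out GPI- cells, with replicate 2 highest, against 5.21 to 5.25 in knock-out GPI+ cells. In batch 2 it was 3.23 to 4.42 in knock-out-graft GPI-, 4.48 to 4.95 in wild-type-graft GPI+ and 5.01 to 5.54 in wild-type GPI+ cells. Replicate 2 was also the knock-out GPI- array with the highest signal of probe set A and probe set B. It differed in array measures too, with the highest hybridisation controls of its group (8.695, against 8.21 and 8.10). Its Gapdh 3′ minus 5′ signal was also the highest (-0.04, against -0.29 and -0.16). The part of each in its Cd24a signal was not tested.

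Of 13 early B-cell genes, 9 were higher in knock-out GPI- against knock-out GPI+ cells (median 0.86), among them Igll1 (1.85) and Vpreb1 (1.74), which form the surrogate light chain, beside 14% of all genes called higher. In knock-out-graft GPI- cells 0 passed against wild-type-graft GPI+ cells, and 3 were lower against wild-type GPI+ cells, beside 5.99% and 10.8% of all genes called. The mean of the list was 5.07 to 5.32 in knock-out GPI- cells, against 4.11 to 4.19 in knock-out GPI+ cells, and the ranges of the 3 groups of batch 2 overlapped. In knock-out GPI- cells, where 9 of 13 early B-cell genes rose, Cd24a fell by probe set A and probe set B and rose by probe set C.

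Of 16 T and NK cell genes, cells that are low in CD24 when mature, 16 were higher in knock-out GPI- against knock-out GPI+ cells (median 3.33), 14 in knock-out-graft GPI- against wild-type-graft GPI+ cells (median 1.49) and 14 against wild-type GPI+ cells (median 1.35), beside 14%, 3.31% and 5.93% of all genes called higher. The mean of the list was 5.17 to 5.26 in knock-out GPI- cells, against 1.96 to 2.11 in knock-out GPI+ cells. It was 3.17 to 4.17 in knock-out-graft GPI-, 2.04 to 2.25 in wild-type-graft GPI+ and 2.16 to 2.60 in wild-type GPI+ cells. The lists of the other cell types gave 6, 5 and 5 of 9 dendritic cell genes higher in these comparisons and 0 lower, and all counts that follow stand beside 28.1%, 5.99% and 10.8% of all genes called. The monocyte and macrophage genes gave 2 higher and 6 lower of 13, then 7 and 4, then 7 and 5. Mature B-cell genes gave 1, 5 and 4 higher of 8, with 1 lower against wild-type GPI+ cells. Eosinophil, basophil and mast cell genes gave 0 higher and 3 lower of 7, then 3 and 1, then 4 and 0. Of 6 plasma cell genes 1 was higher and 3 lower, then 0 passed, then 2 were higher. Of 6 stem and progenitor genes 1, 0 and 1 were higher and 0 lower. The part of these cell-type markers in the Cd24a differences was not tested.

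**Figure D4:**
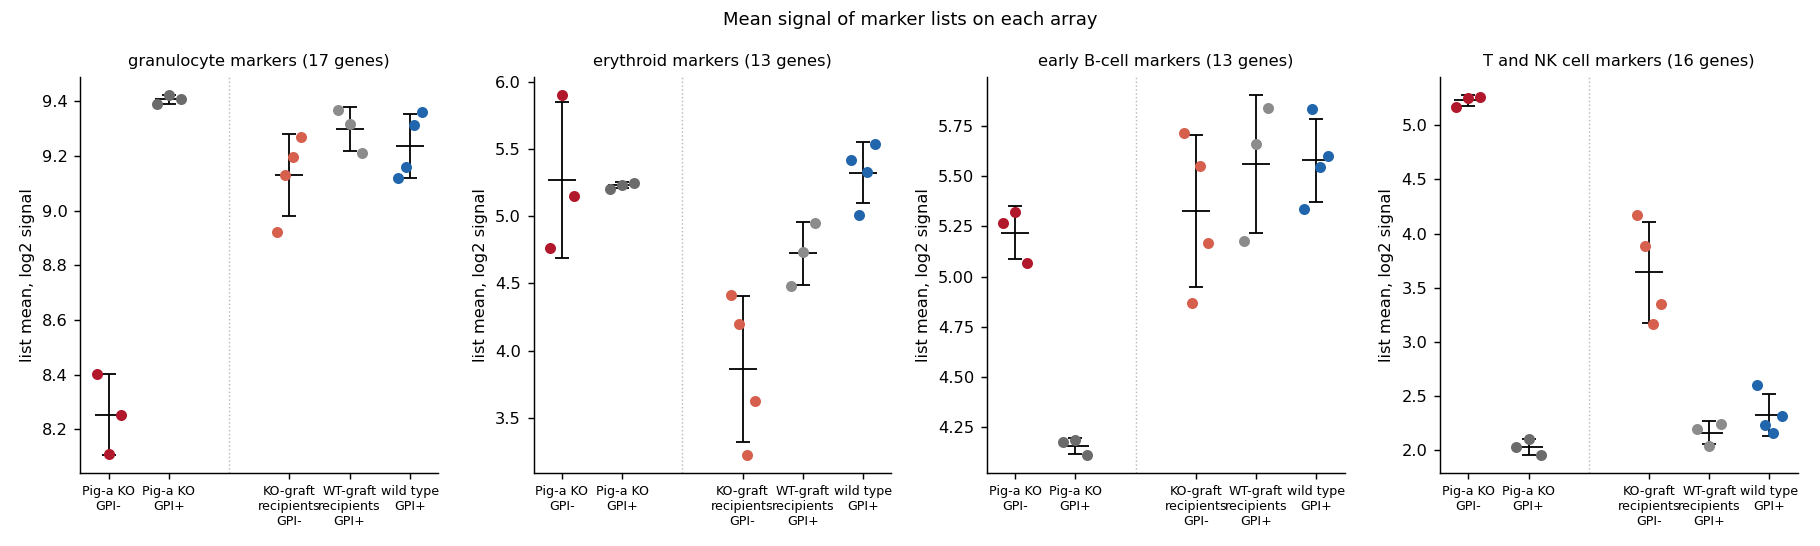
Mean log2 signal of 4 marker lists on every array (y axis), 1 point per array in 5 groups, with mean and SD; the dotted line separates the batches. Granulocyte genes were lower on all knock-out GPI- arrays (8.11 to 8.40) than on the knock-out GPI+ arrays (9.39 to 9.42), and the erythroid mean spread from 4.76 to 5.90 over the knock-out GPI- arrays. The y axes do not start at 0.

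Likeness to Cd24a was measured as Pearson's r with probe set A over the 17 arrays after subtraction of each batch mean, for the 14244 other genes with 1 probe set each, and is a description only. The arrays share their groups, so any gene that separates GPI- from GPI+ cells has a high r in one direction. The 8 genes most like it were Anln (0.94), C1qa (0.93), 4930579G24Rik (0.93), Ttk (0.93), Cdca2 (0.93), Tuba4a (0.93), Depdc1a (0.93) and Slc2a4 (0.92). C1qa read only 0.04 to 0.57 in knock-out GPI- and 0.64 to 1.13 in knock-out-graft GPI- cells. Those values lie toward the dim end of the scale, unlike probe set A. Anln encodes anillin, a scaffold of the cytokinetic ring, Ttk a kinase of the spindle checkpoint, C1qa a chain of complement C1q, Tuba4a an alpha-tubulin and Slc2a4 the insulin-responsive glucose transporter. The 3 least like it were F2r (-0.95), the thrombin receptor, Eomes (-0.95), a transcription factor of NK and T cells, and Dock10 (-0.96), a guanine nucleotide exchange factor.

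Within groups, after subtraction of group means instead, only Slc2a4 of these 8 was still among the 8 highest, at 0.90, while the other 7 had r of 0.27 to 0.67. By Spearman's rank correlation 2 of the 8 stayed among the 8 highest. Among the lists, the median r was 0.59 for granulocyte, 0.52 for erythroid, -0.26 for early B-cell and -0.89 for T and NK cell genes, beside 0.00 for all genes. Dendritic cell genes lay close to the last, at -0.85, and mature B-cell genes at -0.50. The remaining lists of more than 1 gene lay between -0.24 and 0.10. Cd48 had r of -0.89.

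**Figure D5:**
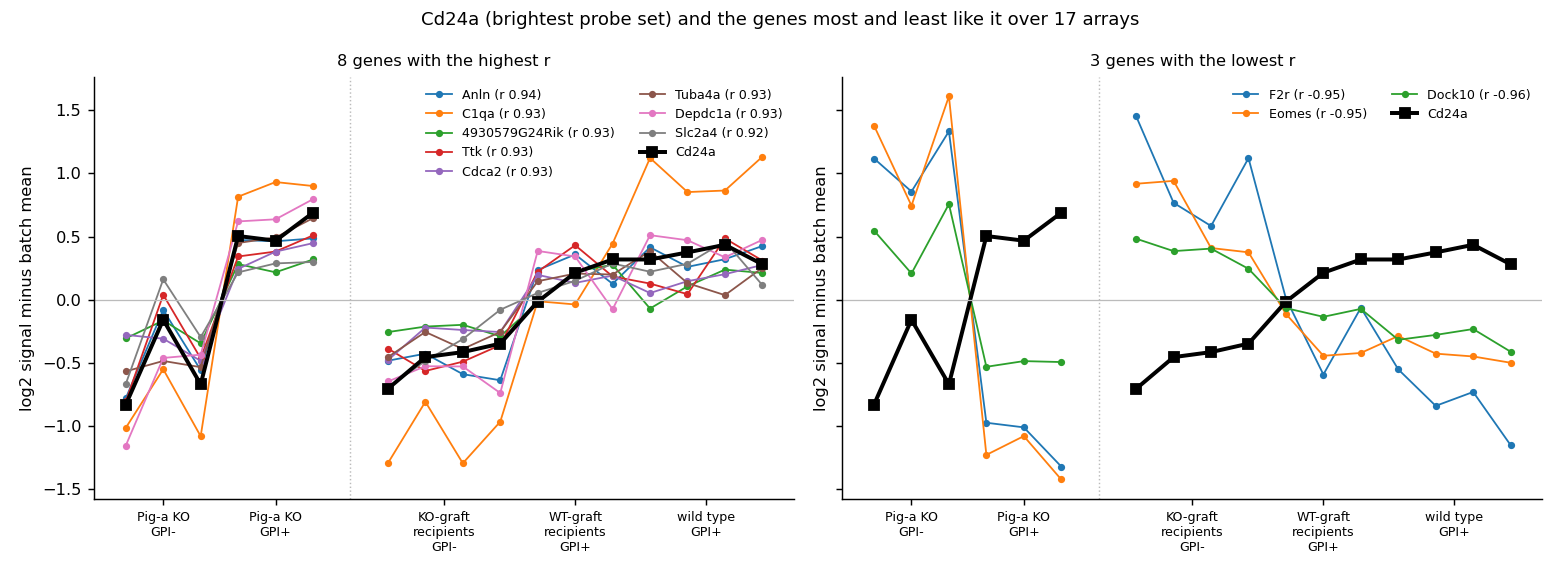
Log2 signal minus the batch mean (y axis) on each of the 17 arrays, ordered by group and replicate (x axis), for Cd24a by probe set A (black squares) and the 8 genes with the highest r (left) and the 3 with the lowest r (right); lines join arrays for reading only. By group mean, Cd24a and the 8 genes are low in knock-out GPI- and knock-out-graft GPI- cells, where Eomes, F2r and Dock10 are high. Knock-out GPI- replicate 2 departs from this, with Slc2a4 (0.16) and Ttk (0.04) above the batch mean and Cd24a (-0.16) and Anln (-0.08) little below it.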

How the data were processed

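Total RNA of sorted mouse marrow cells was labelled and hybridised to 17 Affymetrix arrays, per the labels' protocols. The authors' deposited value table is on a log10-like scale, with the base read from its values. The sorted values are identical on all arrays of a batch (largest difference 0), so the table was quantile-normalized per batch. The submitters' processing notes name GCOS 12, and how background was corrected and probes summarised is not stated there or in the labels. RNA inputs of the first and second experiment were taken to be those of batches 1 and 2.

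Values were divided by the log10 of 2 and centred on a common median, since array medians differed between batches. The planned design held a rule for log10 values, and that rule was applied. After 64 control probe sets were left out, 34945 carried 1 gene symbol, 932 several and 9160 none here; 34741 symbols matched a RefSeq table of assembly GRCm38.p6. Probe sets at or above the 40th percentile of at least 3 arrays were kept (32426). In the lists and the likeness each gene was taken by its brightest kept probe set of 1 symbol (14245). A limma fit (version 3.58.1, R 4.3.3, lmFit and eBayes with trend) of 5 group means over 17 arrays left 12 residual degrees of freedom. It was run on simulated data that gave a probe set the same SD in all groups. That run therefore cannot show how the fit behaves with the unequal spread of the groups here. Exact two-sided permutation tests were run on single probe sets and ratios.

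Named genes were all Cd24a probe sets, the 8 genes most like and 3 least like the brightest, all partners of CD24, up to 3 called members of each list with the largest change, Piga and Cd48. The members, lists and tests were chosen with earlier results of these data known. No genome was used, and no coordinates or sequences are given. Alternatives were quantile or cyclic loess normalization over all arrays, no centring, no filter, 1 probe set or a mean per gene, batch-only fits, no trend, array weights, a replicate block and leaving out each array. A single sample for the knock-out GPI+ arrays and the mean of the 3 Cd24a probe sets were added after seeing the data.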

Additional observations from a re-analysis of the deposited data

Results flagged for a closer look

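Dixon's test of an extreme array was applied to the groups of 4 arrays, where chance marks about 1 in 20, and it marked 3 of 38 groups tested. The ratio of Cd24a probe set A over probe set C was 2.73 on wild-type GPI+ replicate 2, against 3.28 to 3.33 on the other 3 wild-type arrays. The mean of the dendritic cell list was 2.60 on wild-type GPI+ replicate 3, against 2.81 to 2.84 on the others. The mean of the plasma cell list was 5.42 on wild-type GPI+ replicate 2, against 5.27 to 5.29 on the others.

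The difference between knock-out GPI- and knock-out GPI+ cells departed from that between knock-out-graft GPI- and wild-type-graft GPI+ cells, by the limma interaction, for 1 Cd24a probe set. That was probe set C, with 0.60 in the knock-out and -0.39 in the transplanted mice, a difference of 0.99 (adjusted p = 0.00598), which was no longer called with the knock-out GPI+ arrays as 1 sample (adjusted p = 0.07111). Piga, by its brightest probe set, fell by 2.04 in the knock-out and by 3.62 in the transplanted mice, an interaction of 1.58. Another Piga probe set gave -1.09 and -0.71 in these comparisons, so by that probe set the fall was larger in the knock-out. Among the partners of CD24 the interaction was 0.86 for Siglecg, -0.95 for Selp, -0.83 for L1cam, -1.54 for Fgr and 1.37 for Fyn. Of the genes chosen by likeness to Cd24a it was -0.53 for Tuba4a, 1.01 for F2r, 1.501 for Eomes and 0.54 for Dock10. Of the marker genes it was 2.37 for Igll1, 2.13 for Vpreb1, -0.94 for Fcnb, -0.84 for Elane, 1.71 for Ermap and 1.47 for Rhd. Of the GPI-anchored genes it was 2.15 for Thy1 and -1.76 for Cd14. Each of these interactions passed the limma test at an adjusted p below the threshold, as did 15% of all kept probe sets. The likeness, marker and GPI-anchored genes were named for their r or their large changes on these same arrays. Their interactions are therefore descriptions only.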

How the results depend on the processing

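Cd24a by probe set A kept its direction and its side of the threshold in all 4 comparisons within a batch under every alternative run. Its difference for knock-out GPI- against knock-out GPI+ cells ranged from -1.30 to -0.97. The mean of the 3 probe sets, which is not a value of probe set A alone, gave -0.39 in that comparison. The same mean turned the interaction to 0.0746 (limma adjusted p = 0.8034). Array weights brought the interaction of probe set A past the threshold (-0.56, adjusted p = 0.03299). The difference of probe set B between wild-type-graft GPI+ and wild-type GPI+ cells passed in batch-only fits (-0.52) and with array weights (-0.53). With the knock-out GPI+ arrays averaged into 1 sample, probe set B (-0.65) and probe set C (0.60) lost the knock-out call and probe set C lost the interaction (0.99, adjusted p = 0.07111), and 2764 probe sets were called in place of 8238.

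With 1 array left out at a time, the interaction ranged from -0.65 to -0.31 for probe set A and from -0.52 to -0.20 for probe set B. The knock-out difference of probe set C ranged from 0.45 to 0.74. Ratios that changed sign were probe set A over probe set B in knock-out-graft GPI- against wild-type GPI+ cells (-0.0327 to 0.0946), probe set B over probe set C in knock-out-graft GPI- against wild-type-graft GPI+ cells (-0.10 to 0.16) and probe set A over probe set C in wild-type-graft GPI+ against wild-type GPI+ cells (-0.10 to 0.27), and the cause was not tested.

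Between wild-type-graft GPI+ and wild-type GPI+ cells 200 probe sets were called, with 132 without a filter, 120 with 1 probe set a gene, 85 without trend and 608 with array weights. Leaving out 1 array gave 22 to 139 calls there: 34, 61 and 125 without wild-type-graft GPI+ replicates 1, 2 and 3, and 22, 111, 139 and 73 without wild-type GPI+ replicates 1, 2, 3 and 4. Between knock-out-graft GPI- and wild-type-graft GPI+ cells it gave 828 to 1602 in place of 1328, with 828 and 865 without wild-type-graft GPI+ replicates 2 and 3. With 1 probe set a gene, fewer being tested, 4206 were called in knock-out GPI- against knock-out GPI+ cells and 1764 in knock-out-graft GPI- against wild-type GPI+ cells (2647 otherwise).

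Deviations from the group means of same-numbered arrays correlated at -0.13 to 0.09, which gave no sign that replicate numbers pair the samples. These correlations cannot exclude pairing, since each group has few arrays and the knock-out GPI+ arrays lay unusually close together. The labels name no animals, so whether any fractions came from the same mice is unknown. With the replicate number as a block, 46 probe sets were called between wild-type-graft GPI+ and wild-type GPI+ cells, the knock-out difference of probe set A was -1.11 (limma adjusted p = 1.552e-05), and no Cd24a call changed.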
